A study of Homo sapiens with 8 samples.

Results

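The miR-199 and miR-214 family comprises 6 mature human miRNA names, hsa-miR-199a-5p, hsa-miR-199a-3p, hsa-miR-199b-5p, hsa-miR-199b-3p, hsa-miR-214-3p and hsa-miR-214-5p. All entries carrying one of these names were taken from a small RNA-seq table, which gave 8 entries of 2813 and 6 names of 2588. The species prefix is left out below. The libraries came from 4 parental human tumor-derived cell lines, which were cultured in DMEM with fetal bovine serum, seeded for 48 h and left untreated. ES-2 is derived from an ovarian cancer, MV-3 from a melanoma, Huh-7 from a hepatocellular carcinoma and A-549 from a lung adenocarcinoma. There were 2 libraries for each line. Each line is the only one of its tumor type, so that a difference between lines cannot be told apart from a difference between tumor types. The study calls the replicates biological without describing how they were separated, and p-values measure the spread between these libraries.

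A miRNA is released from a hairpin precursor, and either arm of the hairpin, termed 5p and 3p, can be loaded onto an Argonaute protein to repress mRNAs that pair with its seed, bases 2 to 8 of the mature strand. The miR-199 and miR-214 hairpins lie on the strand opposite to the dynamin genes DNM1, DNM2 and DNM3, and those in DNM3 are made from the noncoding RNA DNM3OS. The family is known for its abundance in mesenchymal cells such as fibroblasts and for its low abundance in hepatocellular carcinoma cells.

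Human miR-199a is encoded by 2 hairpins, MIR199A2 on chromosome 1 and MIR199A1 on chromosome 19, and miR-199b by MIR199B on chromosome 9. In GRCh38, the build of the alignment, MIR214 occupies chr1:172138798-172138907 and MIR199A2 chr1:172144535-172144644, both on the minus strand, with 5627 bases between them. Both lie within an intron of DNM3 on its opposite strand. MIR214 overlaps an exon of at least 1 DNM3OS transcript on the same strand, and MIR199A2 lies in an intron of DNM3OS. MIR199A1 was found at chr19:10817426-10817496 in an intron of DNM2, and MIR199B at chr9:128244721-128244830 in an intron of DNM1, each on the minus strand opposite to the gene.

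The mature strands are shown because they decide which names and which genomic copies can be told apart. They were taken from RefSeq (GRCh38), where 5 of the 6 names were matched, and capitals mark the seed.
miR-199a-3p (chromosomes 1 and 19): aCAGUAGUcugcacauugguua
miR-199b-3p (chromosome 9): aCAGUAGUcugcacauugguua
miR-199a-5p (chromosomes 1 and 19): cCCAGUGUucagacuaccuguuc
miR-214-3p (chromosome 1): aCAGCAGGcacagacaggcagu
miR-214-5p (chromosome 1): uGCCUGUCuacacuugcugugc

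The 3p strands of miR-199a and miR-199b are identical over all 22 bases, whichever of the 3 hairpins they come from. Their reads were therefore summed and are called miR-199-3p. The seeds of miR-199-3p and miR-214-3p differ by the substitutions U5C and U8G, counted from base 1 at the 5′ end with the base of miR-199-3p first. The seeds of miR-199a-5p and miR-214-5p differ from these and from each other.

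The deposited values are TMM-normalised signals, called normalised CPM here, from which whole reads per entry were recovered. Libraries held 1173902 to 2670030 miRNA reads, so that 3 reads, taken as the limit of detection, correspond to between 0.845 and 2.45 normalised CPM. Replicates of a line differed by more than counting noise, with a chi-square per degree of freedom between 5.80 and 9.88, and none was a duplicate. The labels of Huh-7 were matched by its liver markers, since miR-122-5p reached 83721 ± 3531 normalised CPM (SD, n = 2) there and at most 32.8 on average elsewhere. The libraries of the other lines held 4 to 57 reads of miR-122-5p. Whether reads at such levels came from the line itself was not tested, here or for the family. Of 4 melanocyte lineage miRNAs, MV-3 lacked miR-211-5p, miR-509-3p and miR-514a-3p and held 2 reads of miR-204-5p in each library, so the melanocytic origin of MV-3 was not visible in these markers. Among 3 blood miRNAs, miR-142-3p was detected with 542 and 657 reads in ES-2 and with 0 reads in the other 6 libraries, whereas miR-451a and miR-223-3p did not exceed 4 reads in any library. The 3 muscle miRNAs together held at most 28 reads in any library.

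The family was abundant in ES-2 and MV-3 and scarce in Huh-7 and A-549. Its members made up 0.672% and 0.682% of all miRNA reads in ES-2 and 1.43% and 1.35% in MV-3. In Huh-7, the shares were 0.00271% and 0.00268%, and in A-549 they were 0.00142% and 0.000874%. Nearly all of these reads came from miR-199, whereas miR-214 contributed 110 reads in MV-3 and at most 11 in any other line.

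**Figure D1:**
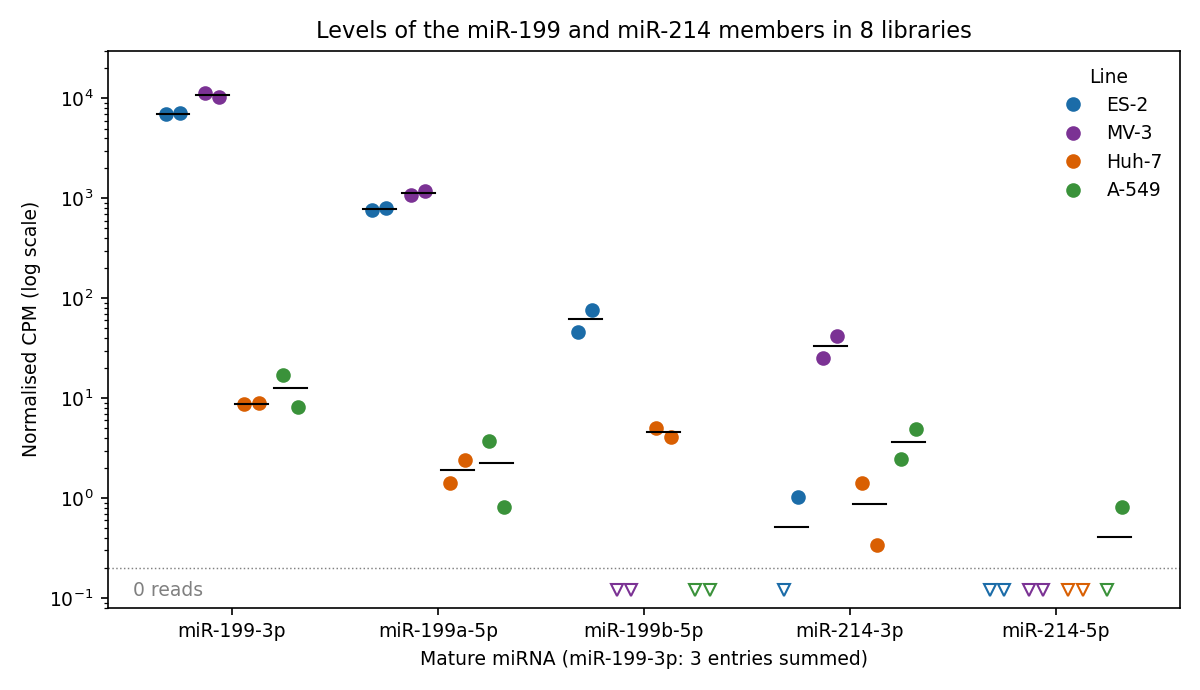
Normalised CPM (log scale) of the 5 distinguishable mature miRNAs in each of the 8 libraries, coloured by line. Filled points are libraries, black bars are the means of 2 libraries, and open triangles under the dotted line are libraries with 0 reads. miR-199-3p and miR-199a-5p lie in a high pair of lines and a low pair, miR-199b-5p is highest in ES-2, and miR-214-3p is highest in MV-3.

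miR-199-3p, the most abundant strand of the family, measured 6952 and 7161 normalised CPM in ES-2 and 11292 and 10249 in MV-3. In Huh-7 it measured 8.73 and 8.88, from 31 and 26 reads, and in A-549 17.2 and 8.18, from 28 and 10 reads. Every ES-2 and MV-3 library lay above every Huh-7 and A-549 library, and the ranges of Huh-7 and A-549 overlapped. By mean level it ranked 15 of 838 detected miRNAs in MV-3 and 22 of 798 in ES-2, against 342 of 1011 in Huh-7 and 322 of 803 in A-549. The descending order of the lines was MV-3, ES-2, A-549 and Huh-7, with means of 10771 ± 737, 7057 ± 148, 12.7 ± 6.40 and 8.80 ± 0.107 normalised CPM (SD, n = 2).

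Differences were tested with limma on log2(normalised CPM + 1) over 527 miRNAs, with Benjamini-Hochberg adjustment over all of them, and a difference was called at an adjusted p below 0.01. On this scale the fold changes of rarely read miRNAs come out too small. Of the 5 distinguishable family members, 4 passed the filter on low reads and were tested. miR-199a-5p passed it only through ES-2 and MV-3, miR-199b-5p only through ES-2 and miR-214-3p only through MV-3. The calls of these members are therefore not independent of the filter. All 4 tested members differed among the 4 lines, where 68.1% of all tested miRNAs were called. For miR-214-3p this call was lost with a pseudocount of 0.1 (limma adjusted p = 0.0184) and without MV-3 replicate 2 (0.0114). With so many miRNAs differing between these lines, the size and the pattern of the differences describe the family better than their number.

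For miR-199-3p, limma gave a log2 fold change of -9.49 in Huh-7 relative to ES-2 (SE 0.29, adjusted p = 7.63e-07) and of -9.09 in A-549 relative to ES-2 (SE 0.29, adjusted p = 2.24e-06), both called. Against MV-3, the limma values were -10.10 for Huh-7 (adjusted p = 5.87e-07) and -9.70 for A-549 (adjusted p = 2.38e-06). From summed reads per effective library size, ES-2 held 804-fold more miR-199-3p than Huh-7 (95% interval 620 to 1062) and 530-fold more than A-549 (386 to 749). The intervals of these ratios are exact and cover counting error only, not the choice of scaling. Without TMM factors, the limma log2 fold changes against ES-2 were -8.59 for Huh-7 and -9.53 for A-549, so that the lines changed order.

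MV-3 held 1.51-fold more miR-199-3p than ES-2 (95% interval 1.49 to 1.54), and both MV-3 libraries lay above both ES-2 libraries. By limma over all 8 libraries the log2 fold change was 0.61 (SE 0.29, adjusted p = 0.17) and was not called. It was called by edgeR on recovered reads, with the same log2 fold change of 0.61 (adjusted p = 0.00309), by DESeq2 (0.58, adjusted p = 2.37e-07) and by limma on these 4 libraries alone (0.61, adjusted p = 0.00176). Without TMM factors, on library size only, the log2 fold change rose to 1.05. A-549 and Huh-7 did not differ detectably by limma, with a log2 fold change of 0.40 (SE 0.29, adjusted p = 0.274). Without TMM factors this value was -0.94. It was -0.10 without A-549 replicate 1, and 0.90 without A-549 replicate 2, when it was called (adjusted p = 0.00155).

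miR-199a-5p, the strand paired with miR-199a-3p in the hairpin, followed the same order of high and low lines at a lower level. It measured 761 and 801 normalised CPM in ES-2 and 1073 and 1198 in MV-3, both pairs far from those of the other lines. Huh-7 showed 1.41 and 2.39 normalised CPM, from 5 and 7 reads, and A-549 showed 3.69 and 0.818, from 6 reads and 1 read. Its levels were thus near the limit of detection in Huh-7 and A-549, whose ranges overlapped. limma gave log2 fold changes of -8.10 for Huh-7 against ES-2 (SE 0.45, adjusted p = 1.08e-05) and -8.06 for A-549 against ES-2 (SE 0.45, adjusted p = 1.72e-05). Against MV-3, they were -8.63 for Huh-7 (adjusted p = 8.89e-06) and -8.60 for A-549 (adjusted p = 2.27e-05). MV-3 exceeded ES-2 by 0.54 on the log2 scale, which limma did not call (SE 0.45, adjusted p = 0.420) but DESeq2 did (0.51, adjusted p = 0.00808), as did limma on the 4 libraries alone (0.54, adjusted p = 0.00590). It was not called by edgeR on recovered reads (0.54, adjusted p = 0.0394) or by limma with other scalings or filters.

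Because the 3 hairpins share the miR-199-3p sequence, its reads cannot be assigned to a chromosome. The table nevertheless lists a value for each copy. Of 57986 reads of this sequence, 33.9% stood under the chromosome 1 entry, 33.2% under chromosome 19 and 32.8% under chromosome 9, where an equal split would give 33.3%. Over all libraries the split was close to equal but not exactly so, since the 95% exact interval was 33.5 to 34.3 for chromosome 1, 32.9 to 33.6 for chromosome 19 and 32.5 to 33.2 for chromosome 9. Within single libraries the intervals of all 3 shares held the equal split in 7 of 8. MV-3 replicate 1 was the exception, with 1 of 3 intervals holding it.

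The 6307 reads of miR-199a-5p were split in the same way over its 2 copies, 48.7% under chromosome 1 (95% exact interval 47.4 to 49.9) and 51.3% under chromosome 19 (50.1 to 52.6). Here 7 of 8 libraries held the equal split in both intervals and ES-2 replicate 2 in neither. Since the sequences are identical, this split cannot tell the hairpin of origin. The mean level under the name miR-199b-3p, 3526 ± 205 normalised CPM in MV-3 and 2326 ± 52.1 in ES-2 (SD, n = 2), is accordingly about as large as that of each miR-199a-3p entry, although MV-3 held no read of miR-199b-5p.

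**Figure D2:**
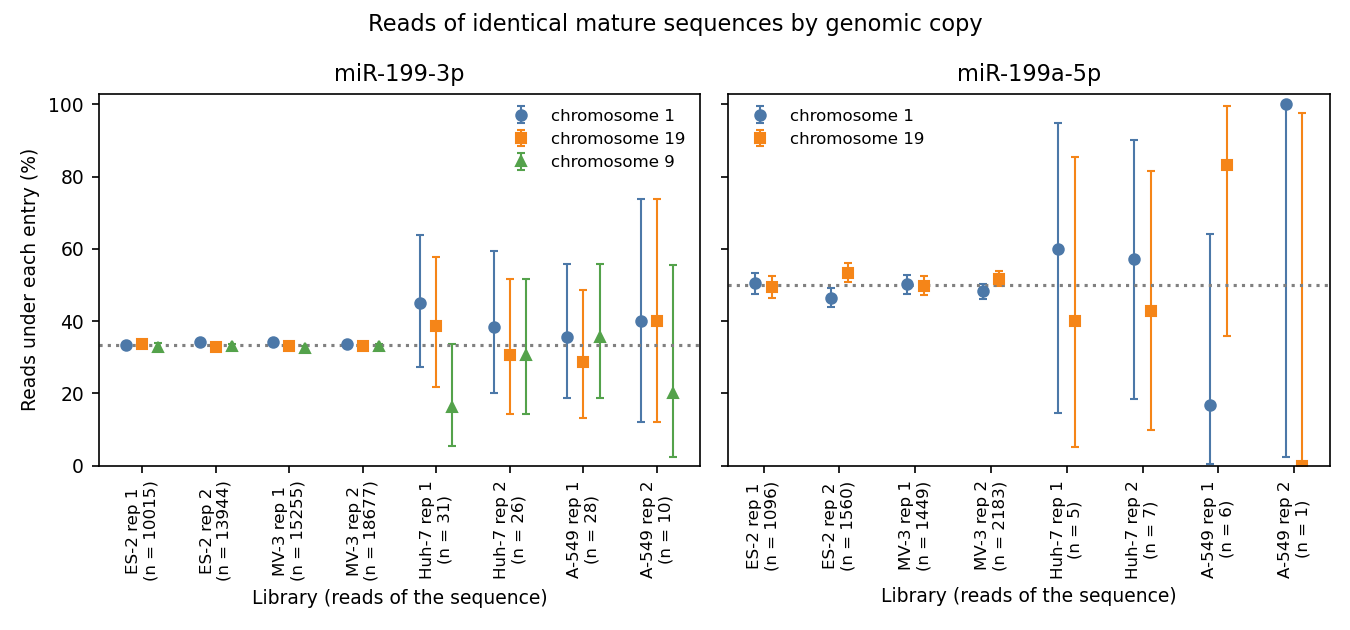
Share of the reads of miR-199-3p (left) and miR-199a-5p (right) listed under each chromosome's entry, in percent, for each library, with exact 95% intervals and the number of reads in parentheses. The dotted line marks an equal split, on which the ES-2 and MV-3 shares lie closely, while the few reads in Huh-7 and A-549 leave wide intervals.

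miR-199b-5p is the strand by which the chromosome 9 hairpin was listed apart from the miR-199a hairpins, and its order of lines was different. ES-2 held 67 and 150 reads, or 46.5 and 77.0 normalised CPM, and Huh-7 held 18 and 12 reads, or 5.07 and 4.10 normalised CPM. MV-3 and A-549 held 0 reads in both libraries. The groups did not overlap, apart from MV-3 and A-549, which were both at 0. MV-3, the line with the highest miR-199-3p and miR-199a-5p, thus had no detectable miR-199b-5p.

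By limma, miR-199b-5p was higher in ES-2 than in every other line. Huh-7 fell below ES-2 by a log2 fold change of -3.45 (SE 0.34, adjusted p = 0.000158), and the ratio of summed reads was 13.8 (95% interval 9.42 to 21). Taking 3 reads per library as the floor, ES-2 was at least 31.9-fold higher than MV-3 (limma adjusted p = 3.67e-05) and at least 28.7-fold higher than A-549 (limma adjusted p = 1.88e-05). Huh-7 was likewise at least 2.37-fold higher than MV-3 (limma adjusted p = 0.000851) and at least 2.13-fold higher than A-549 (limma adjusted p = 0.000784). The call of Huh-7 over MV-3 was lost without MV-3 replicate 1 (limma adjusted p = 0.0118), MV-3 replicate 2 (0.0107) or Huh-7 replicate 1 (0.0106).

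Within the miR-199-5p reads of each library, the share of miR-199b-5p was 5.76% (67 of 1163) and 8.77% (150 of 1710) in ES-2. In MV-3 it was 0 of 1449 and 0 of 2183 reads, which allows shares of up to 0.207% and 0.137% at 3 reads, with exact 95% upper bounds of 0.254% and 0.169%. In Huh-7 it was 78.3% (18 of 23, exact 95% interval 56.3 to 92.5) and 63.2% (12 of 19, 38.4 to 83.7). Huh-7 was the line in which miR-199b-5p outnumbered miR-199a-5p in both libraries, on a total of 42 reads. A-549 had 7 miR-199-5p reads in all, too few to give a share. ES-2 was the single line with at least 20 reads of each strand in each library, the minimum set for a test, and the shares are given without one.

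miR-3154, which is annotated beside MIR199B in the same DNM1 intron and on the same strand, was read in ES-2 only, with 10 and 4 reads against 0 reads in the other 6 libraries. These levels, 6.94 and 2.05 normalised CPM, were low. ES-2 was also the line with the highest miR-199b-5p.

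miR-214-3p, the main strand of the hairpin next to MIR199A2, was high in MV-3 alone. MV-3 held 34 and 76 reads, or 25.2 and 41.7 normalised CPM. ES-2 held 0 and 2 reads, Huh-7 5 and 1 reads, and A-549 4 and 6 reads, with line means of 0.514, 0.875 and 3.68 normalised CPM. Both MV-3 libraries lay above all others, and both A-549 libraries lay above those of ES-2 and Huh-7, although on few reads. The latter order depended on the scaling, since in CPM without TMM factors A-549 measured 1.5 and 2.91 and Huh-7 2.3 and 0.582, so that the lines overlapped. By mean level miR-214-3p ranked 211 in MV-3, 438 in A-549, 683 in ES-2 and 727 in Huh-7.

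From summed reads, MV-3 held 58.7-fold more miR-214-3p than ES-2 (95% interval 15.9 to 491), 37.4-fold more than Huh-7 (16.7 to 104) and 9.87-fold more than A-549 (5.17 to 21.2). limma gave log2 fold changes of 4.55 for MV-3 against ES-2 (SE 0.55, adjusted p = 0.000869), -4.22 for Huh-7 against MV-3 (SE 0.55, adjusted p = 0.000675) and -2.89 for A-549 against MV-3 (SE 0.55, adjusted p = 0.00484). With a pseudocount of 0.1 in place of 1, none of these 3 limma calls held (adjusted p = 0.0114, 0.0164 and 0.0949). The first was also lost without ES-2 replicate 1 (limma adjusted p = 0.0123) or MV-3 replicate 2 (0.010027), and the second without Huh-7 replicate 2 (0.0130). The third was lost without a filter (0.0130), by DESeq2 (0.0102), and without any library but ES-2 replicate 2 (0.0114 to 0.0475). The remaining pairs were not called by limma, with log2 fold changes of 1.67 for A-549 against ES-2 (adjusted p = 0.0412), 1.33 for A-549 against Huh-7 (adjusted p = 0.0740) and 0.34 for Huh-7 against ES-2 (adjusted p = 0.669).

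Thus ES-2 and MV-3, which shared high miR-199-3p and miR-199a-5p, held different further members, miR-199b-5p in ES-2 and miR-214-3p in MV-3. In MV-3 miR-199a-5p outnumbered miR-214-3p 42.6 to 1 and 28.7 to 1 in the 2 libraries. In ES-2, 2 reads of miR-214-3p stood against 2656 of miR-199a-5p. As a share of both, miR-214-3p made up 2.29% (exact 95% interval 1.59 to 3.19) and 3.36% (2.66 to 4.19) in MV-3, and 0% (0 to 0.336) and 0.128% (0.0155 to 0.462) in ES-2. The intervals of the 2 lines did not overlap. In Huh-7 and A-549 this share rested on 7 to 10 reads per library and ranged from 12.5% to 85.7%.

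miR-214-5p, the other strand of the hairpin, had 1 read in the whole series, in A-549 replicate 2, and was not tested. The DNM3 strand opposite to MIR214 carries a further hairpin, MIR3120, at chr1:172138808-172138888. miR-3120-5p overlaps miR-214-3p by 18 bases, and 0 reads were listed under it in any library against 128 under miR-214-3p. For miR-103a-3p and miR-103b, which occupy the same 23 bases on opposite strands, the reads were 169393 and 0. Reads of opposite strands were therefore kept apart in the table, and miR-3120-3p likewise had 0 reads.

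**Figure D3:**
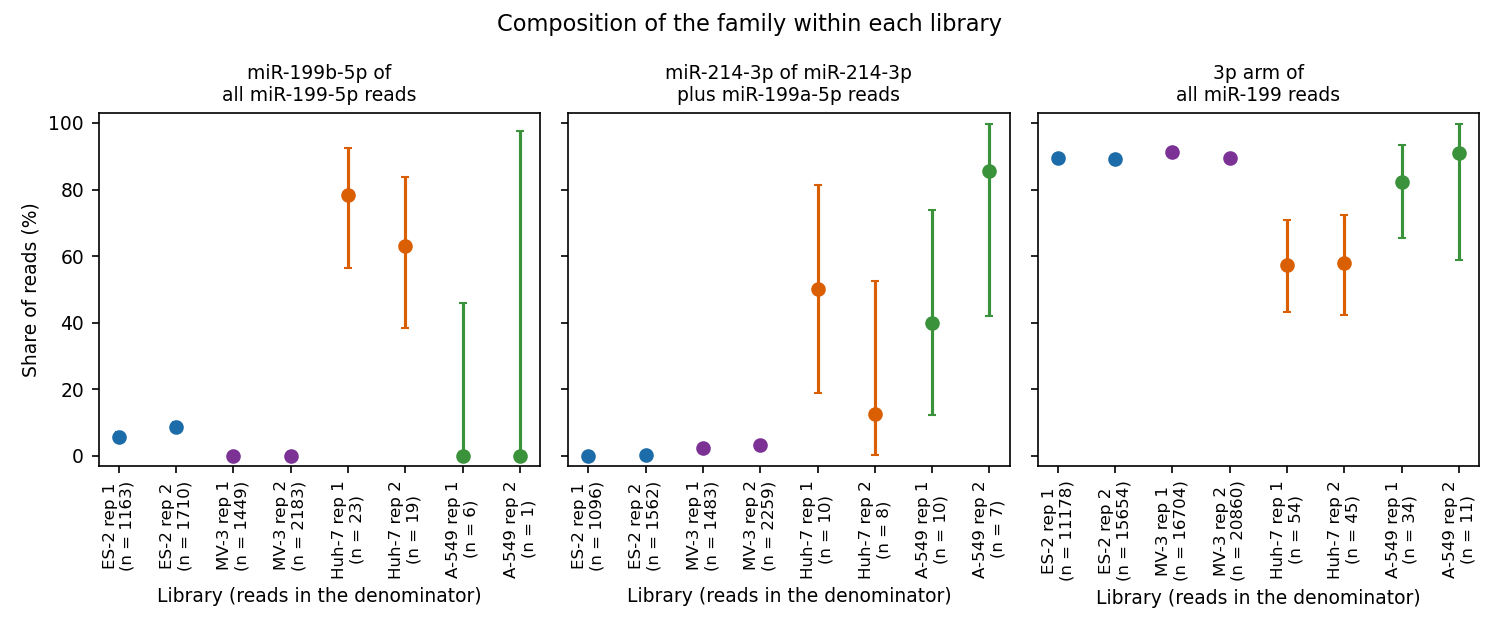
Composition of the family in each library as percent of reads, with exact 95% intervals and the reads in the denominator in parentheses. Left, miR-199b-5p among all miR-199-5p reads. Middle, miR-214-3p among miR-214-3p and miR-199a-5p reads. Right, the 3p strand among all miR-199 reads. The ES-2 and MV-3 intervals are smaller than most points, and those of Huh-7 and A-549 are wide.

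The 3p strand dominated miR-199 where the family was abundant. It made up 89.6% and 89.1% of all miR-199 reads in ES-2 and 91.3% and 89.5% in MV-3. The log2 ratio of 3p to 5p reads was 3.07 ± 0.06 in ES-2 and 3.25 ± 0.21 in MV-3 (SD, n = 2). An exact two-sided permutation test gave p = 0.667. With these 4 libraries it cannot give a p below 0.333, so it cannot decide whether the lines differ. In Huh-7 the 3p share was 57.4% (31 of 54, exact 95% interval 43.2 to 70.8) and 57.8% (26 of 45, 42.2 to 72.3), with both intervals below the shares in ES-2 and MV-3. A-549 gave 82.4% (28 of 34) and 90.9% (10 of 11), near the values of the abundant lines. The lower 3p share in Huh-7 went with its high share of miR-199b-5p. These shares are not independent observations, since the miR-199b-5p reads enter both.

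**Figure D4:**
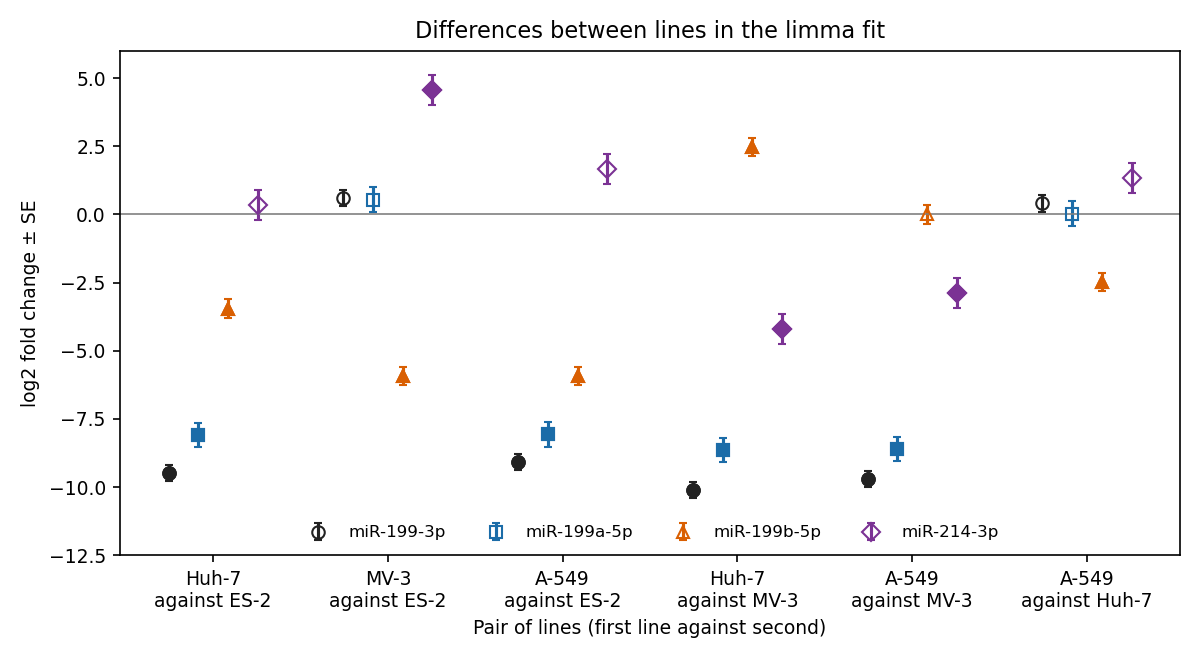
log2 fold changes from limma for the 4 tested members in the 6 pairs of lines, the first line against the second, with standard errors. Filled symbols are called at an adjusted p below 0.01. miR-199-3p and miR-199a-5p lie between -8.06 and -10.10 in the 4 pairs that set Huh-7 or A-549 against ES-2 or MV-3, and miR-199b-5p and miR-214-3p follow patterns of their own.

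In all, 3 of the 4 tested members were called between Huh-7 and ES-2, where 49.1% of tested miRNAs were called, and all 3 were lower in Huh-7, where 21.4% of tested miRNAs were called lower. Between A-549 and ES-2, 3 of 4 were called and all 3 were lower in A-549, against 41.2% of tested miRNAs called and 17.5% called lower. Between Huh-7 and MV-3 all 4 were called, against 46.9% of tested miRNAs, and miR-199b-5p was the member that was higher in Huh-7. Between A-549 and MV-3, 3 of 4 were called, all lower in A-549, against 39.5% of tested miRNAs called and 15.4% called lower. The 2 lines with an abundant family, MV-3 and ES-2, differed in 2 of 4 members in opposite directions, against 25.8% of tested miRNAs. Between A-549 and Huh-7, 1 of 4 members was called, miR-199b-5p, which was lower in A-549. Of all tested miRNAs 52.4% were called in that pair and 23.7% were called lower in A-549. Alternative settings that kept both libraries of each compared line changed some of these counts. The range was 1 to 4 between MV-3 and ES-2 and 0 to 1 between A-549 and Huh-7. It was 3 to 4 between Huh-7 and MV-3, 2 to 3 between A-549 and MV-3 and 3 to 4 between A-549 and ES-2. Between Huh-7 and ES-2 the count stayed at 3. The 3 comparisons with a common line share its libraries and are not independent of each other. The members are not independent either, since miR-199-3p and miR-199a-5p are strands of the same hairpins (r = 0.999). miR-199a-5p, miR-199b-5p and miR-214-3p were also tested only because of the lines in which they were high. The counts are therefore a description and no independent support.

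The seeds of the family are shared by a few miRNAs from other loci. miR-3129-5p, with the sequence gCAGUAGUguagagauugguuu, carries the seed of miR-199-3p. It held 44 and 62 reads in Huh-7, 10 and 14 in A-549, 0 and 6 in ES-2 and 0 and 4 in MV-3. Its reads thus exceeded the 31 and 26 reads of miR-199-3p in both Huh-7 libraries. In A-549 they were below the 28 reads of miR-199-3p in replicate 1 and above its 10 reads in replicate 2. They were far below those of miR-199-3p in ES-2 and MV-3. miR-3619-5p, which carries the seed of miR-214-3p (uCAGCAGGcaggcuggugcagc), did not exceed 7 reads in any library. miR-761 has the same seed and had 0 reads.

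As a description of likeness, Pearson's r with miR-199-3p was computed on log2(normalised CPM + 1) over the 8 libraries, for 246 other tested miRNAs whose mean reached 100 normalised CPM in 1 line. The 8 points fall into a high and a low set of lines and replicates share a line, so that any miRNA high in ES-2 and MV-3 scores well. The nearest 5 were miR-584-5p (r = 0.979), miR-767-5p (0.963), miR-155-5p (0.931), then miR-125b-5p (0.921) and last miR-7-5p (0.908). Within the family r was 0.999 for miR-199a-5p, 0.304 for miR-199b-5p and 0.386 for miR-214-3p.

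The 5 miRNAs differed widely in the size of the change. miR-584-5p measured 1318 ± 81.9 normalised CPM in ES-2 and 809 ± 67.0 in MV-3, against 0.482 in Huh-7 and 3.89 in A-549 (SD, n = 2). miR-155-5p, known from immune cells, measured 9249 ± 326 in ES-2 and 2841 ± 537 in MV-3, against 38.3 ± 0.194 in A-549 and 1 read in Huh-7. miR-125b-5p, the smaller of the remaining pair in Huh-7, did not fall below 717 normalised CPM in any library, and miR-7-5p not below 1223. For miR-767-5p, ES-2 replicates were apart, at 47.9 and 15.4 normalised CPM, and MV-3 was higher at 102 and 112.

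**Figure D5:**
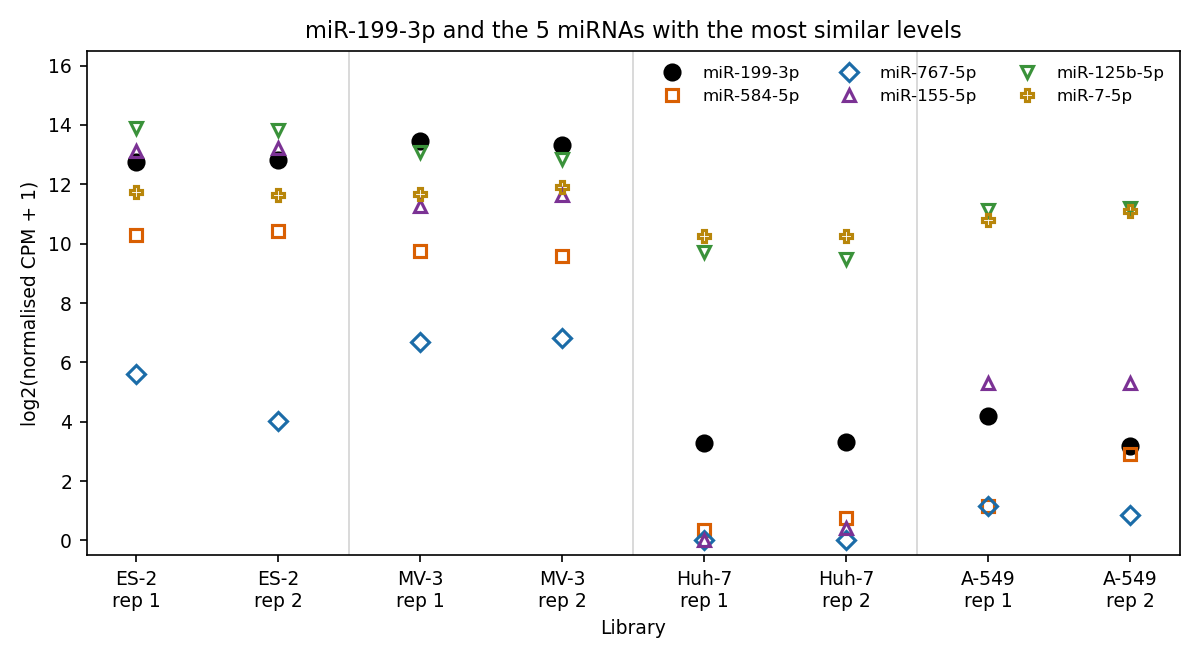
log2(normalised CPM + 1) of miR-199-3p and of the 5 miRNAs with the highest Pearson's r to it, in each of the 8 libraries, with grey lines between cell lines. All 6 are higher in ES-2 and MV-3 than in Huh-7 and A-549, by very different amounts.

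Members of the miR-200 family were higher in the lines with little miR-199 than in those with much of it. The miR-200 family represses the transcription factors ZEB1 and ZEB2 and marks epithelial cells. Of 7 listed epithelial miRNAs, 4 were tested (miR-200a-3p, miR-200b-3p, miR-200c-3p and miR-429). Their list summed to 2273 to 2339 normalised CPM in Huh-7 and 1606 to 1735 in A-549, against 62.7 to 64.6 in ES-2 and 29.6 to 47.2 in MV-3. All 4 were higher in Huh-7 and in A-549 than in MV-3 by limma, against 26.9% and 24.1% of all tested miRNAs called higher, and 3 of 4 were higher than in ES-2, against 27.7% and 23.7%, miR-200c-3p being the exception with log2 fold changes of 1.41 for Huh-7 (adjusted p = 0.0231) and 0.77 for A-549 (adjusted p = 0.156). The list's median log2 fold changes were 7.01 for Huh-7 against ES-2 and 5.93 for A-549 against MV-3, beside 0.34 and 0.09 for all tested miRNAs. None of the 4 was called between MV-3 and ES-2 or between A-549 and Huh-7. The other 3 listed miRNAs were too low to be tested and had another order. miR-141-3p had its most reads in ES-2, with 7 and 11, against 4 and 3 in Huh-7, 0 and 1 in A-549 and 0 in MV-3. miR-203a-3p also had its most reads in ES-2, with 6 and 13, against 1 and 7 in A-549, 0 and 2 in MV-3 and 0 and 1 in Huh-7. miR-205-5p had 4 reads in A-549 replicate 2 and 0 in the other libraries. Of the 4 tested miRNAs, miR-200a-3p and miR-429 passed the filter only through Huh-7 and A-549, where they were high. The list was also chosen with earlier results of these data known, so that its calls are a description and no independent support.

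miRNAs commonly linked to mesenchymal cells did not share one pattern. The list, chosen with earlier results of these data known, held miR-143-3p, miR-143-5p, miR-145-5p, miR-145-3p, miR-100-5p, miR-125b-5p, miR-10b-5p, miR-152-3p, miR-155-5p and miR-218-5p. Of 10 listed, 9 were tested, and by limma 6 were lower in Huh-7 and 6 in A-549 when each was set against MV-3, with 0 called higher in either. Of all tested miRNAs 19.9% and 15.4% were called lower in these pairs. The lower ones included miR-125b-5p and miR-155-5p in both pairs, which were also among the 5 miRNAs most similar to miR-199-3p. Against ES-2, 5 were lower and 3 were higher in Huh-7, and likewise 5 were lower and 3 were higher in A-549. Of all tested miRNAs 21.4% were called lower and 27.7% higher in Huh-7 than ES-2, and 17.5% lower and 23.7% higher in A-549. The 3 higher ones were miR-143-3p, miR-145-5p and miR-145-3p, which are known from smooth muscle and fibroblasts. ES-2 held 0 reads of miR-145-5p in both libraries and 1 and 0 reads of miR-145-3p. Both miR-145 strands thus passed the filter only through other lines, and their calls against ES-2 are not independent of it. miR-143-3p was highest in A-549, at 2561 ± 78.6 normalised CPM, followed by MV-3 at 1038 ± 27.6, Huh-7 at 251 ± 9.67 and ES-2 at 17.1 ± 11.4 (SD, n = 2). A-549, with little miR-199-3p, thus held the most miR-143-3p, and ES-2, with abundant miR-199-3p, the least. miR-100-5p made up most of the list's reads in ES-2, MV-3 and A-549, and its order was ES-2 (129655 normalised CPM), MV-3 (60156), A-549 (14757) and Huh-7 (223). The median log2 fold change of the list was -2.02 for Huh-7 against ES-2 and -1.26 for A-549 against MV-3, beside 0.34 and 0.09 for all tested miRNAs. Between A-549 and Huh-7, 6 were called higher and 1 lower in A-549, against 28.7% and 23.7% of all tested miRNAs, whereas miR-199-3p did not differ detectably there.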

How the data were processed

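Small RNA-seq libraries were made by the authors from total RNA with the NEXTflex Small RNA kit. Reads were clipped with cutadapt 1.14, aligned to GRCh38 with Bowtie2 2.3.2, counted on miRBase miRNAs with featureCounts 1.5.3 and normalized by TMM in edgeR 3.18.1. The treatment of multi-mapping reads, random adapter bases and PCR copies was not given in the sources used here, and intervals cover counting error only. The authors deposited TMM-normalised signal values per entry. Divided by the value of 1 read in its library, 100% of values came out whole at a tolerance of 0.001. Entries of a name were summed.

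limma 3.58.1 (R 4.3.3) was fitted with 1 term per line over all 8 libraries on log2(normalised CPM + 1) with a variance trend on the mean level, for 527 miRNAs passing filterByExpr, and was tested on simulated data. Alternatives used edgeR 4.0.16, DESeq2 1.42.0, other scalings, filters, pseudocounts, entry handling and left-out libraries. Exact intervals are Clopper-Pearson (scipy 1.17.1), at 95%. Sequences and hairpins are from RefSeq and gene models from GENCODE, both on GRCh38. The named miRNAs are the members, the neighbours and seed sharers of their hairpins, the 5 most similar miRNAs, and lists of mesenchymal, epithelial and other cell type miRNAs. Members and lists were chosen with earlier results of these data known.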

Additional observations from a re-analysis of the deposited data

How the results depend on the processing

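The lower miR-199-3p and miR-199a-5p in Huh-7 and A-549 than in ES-2 and MV-3 were called under all alternatives run, with miR-199-3p between -10.58 and -8.59 and miR-199a-5p between -9.38 and -7.36 on the log2 scale. Of 455 alternatives of 24 single log2 fold changes, 421 kept their call and direction, 18 lost a call, 8 gained one and 8 changed sign. In no alternative did 15 of the 24 change. These include miR-199b-5p in A-549 against MV-3, which had 0 reads in both lines and could not change. The number of members called between MV-3 and ES-2, 2 by limma, was 1 with a pseudocount of 0.1, 4 by DESeq2, 4 with only these lines in the fit, and 1 to 3 with each library left out. Between A-549 and Huh-7 it was 1, 0 with only these lines in the fit, and 1 to 2 with each library left out. The sign changes were not called: miR-199-3p in A-549 against Huh-7 was -0.94 on library size only and -0.10 to 0.90 with a library left out, miR-199a-5p there was -0.90 on library size only, -0.055 with a pseudocount of 0.1 and -0.65 to 0.72 with a library left out, and miR-214-3p in Huh-7 against ES-2 was -0.17 to 0.85 with a library left out. Taking each name's highest entry in place of the sum, the share of miR-199b-5p in ES-2 was 13.1% in place of 7.27%, the log2 ratio of 3p to 5p was 2.36 in ES-2 and 2.67 in MV-3, and that of miR-214-3p to miR-199a-5p in MV-3 was -4.15 in place of -5.13, since this choice discards the other copies' reads. Scaling by library size alone moved the median over all tested miRNAs by -1.33 to 0.88 (log2). Replicate numbers did not pair the libraries (correlations of same-numbered deviations of -0.05 to 0.23), and a replicate block changed no member's call, with MV-3 against ES-2 at 4.55 for miR-214-3p (limma adjusted p = 0.00148). Depth limited miR-199 and miR-214 in Huh-7 and A-549, where values rested on 0 to 31 reads, and miR-214-3p in all lines.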
